A study of Ovis aries with 23 samples.

Results

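Lung tissue from 9 sheep with the hyperinflammatory form of acute respiratory distress syndrome (Ph2) was compared between observation times of 6, 12 and 24 h, with 3 animals at each time. The animals were selected by their labels, as all sheep that had received oleic acid and then intravenous lipopolysaccharide (LPS), and they are 9 of the 23 sheep of the series. Sheep given oleic acid alone entered no comparison and served only to check the names of the features. All 9 were female Merino-Dorset crossbred ewes of 1 to 3 years, anesthetized, intubated and ventilated, and all received both agents intravenously, with the LPS of E. coli infused after the oleic acid.

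They had been control animals of 2 preclinical trials, CELTIC and STARDUST, and the supplement of the study gives the trial of each animal. Tissue at 6 h came from C4, C5 and G33, all of CELTIC. At 12 h it came from G34 of CELTIC and from SD4 and SD13 of STARDUST, and at 24 h from SD8, SD9 and SD11, all of STARDUST. Between 6 and 24 h, observation time and trial therefore cannot be told apart. Every animal gave tissue at 1 time only, so the times compare different sheep, and no uninjured lung entered the comparison. RNA of 3 lobes of the right lung was pooled, which gave 1 value per gene and animal.

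Oleic acid damages the endothelium and epithelium of the alveolar wall, and LPS is sensed by Toll-like receptor 4 on macrophages and endothelium, which then recruit and activate neutrophils. Neutrophils carry ready-made granules with proteases, iron- and vitamin-binding proteins and adhesion molecules. The mRNAs of many granule proteins are made mainly while neutrophils mature in the bone marrow, so they are best known from young or immature neutrophils. The markers measured here had been picked by the study from blood leukocytes of patients, 9 of them as higher in a reactive human subgroup (P2) and 5 as higher in an uninflamed one (P1).

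Expression was measured with a custom nCounter assay, which counts fluorescent barcodes on probe pairs hybridized to each mRNA, without amplification. The deposited unit is the log2 normalized count, on which a difference of 1 is a doubling. The table holds 20 features under tag identifiers, of which 14 were named as markers from their order in the probe table. The names are therefore not stated by the table itself. The other 6, T007 and T011 and the run from T036 to T039, are given by their tags. The panel holds no defining marker of a lung cell type, so the tissue label could not be checked on these values.

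In all 9 animals the unlogged values were whole numbers times a single factor, within a tolerance of 0.0001, and the whole numbers recovered in this way summed to between 13871 and 25776 per animal, with a median of 19320. The median was 14738.5 in the 4 CELTIC animals and 20510 in the 5 STARDUST animals. T007 and T011 had the lowest counts, between 3 and 10 and between 2 and 15 per animal. They stood at the places of the 2 genes that the study left out as below the detection limit.

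The capture probes of 5 markers are shown because the results below turn on them. OLFM4 and CD177 had the lowest p-values across the 3 times, and MMP8, GPR84 and HAL had the next largest differences between 24 and 6 h. Each probe is written 5′ to 3′, with the 25 bases that all capture probes share in lower case and the gene-specific bases, complementary to the mRNA, in capitals.
OLFM4: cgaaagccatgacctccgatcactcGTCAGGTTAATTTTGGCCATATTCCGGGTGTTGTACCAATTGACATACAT
CD177: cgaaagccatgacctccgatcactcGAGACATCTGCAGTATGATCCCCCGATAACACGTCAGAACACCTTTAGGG
MMP8: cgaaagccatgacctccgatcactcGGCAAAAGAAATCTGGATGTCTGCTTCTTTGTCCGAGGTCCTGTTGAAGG
GPR84: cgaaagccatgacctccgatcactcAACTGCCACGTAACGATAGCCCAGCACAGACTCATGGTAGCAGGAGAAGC
HAL: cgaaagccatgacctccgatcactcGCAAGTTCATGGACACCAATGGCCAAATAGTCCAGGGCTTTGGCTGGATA
The gene-specific part was 49 or 50 bases long in the 14 markers, and its GC content ranged from 40% in OLFM4 and MME to 67.3% in CEACAM1.

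OLFM4 (T002), a glycoprotein of neutrophil specific granules, showed the largest difference with observation time. Its log2 normalized counts were 7.38, 8.22 and 10.64 in C4, C5 and G33 at 6 h, then 7.85, 5.04 and 7.15 in G34, SD4 and SD13 at 12 h, and 2.52, 6.47 and 2.75 in SD8, SD9 and SD11 at 24 h. Every 24 h animal lay below every 6 h animal, while the 12 h values overlapped with both. The means were 8.75 ± 1.69 at 6 h, 6.68 ± 1.46 at 12 h and 3.91 ± 2.21 at 24 h (log2, SD, n = 3 at each time).

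The mean log2 level of OLFM4 was lower by 4.84 at 24 h than at 6 h, with a standard error of 1.21 and a 95% interval of the difference from -7.54 to -2.13. On the linear scale this is a 28.5-fold difference, which rests on 2 animals at 24 h (SD8 and SD11) whose OLFM4 was not above the features at the detection limit, and the log2 difference was -4.22 with such values raised to those features. By limma, with Benjamini-Hochberg adjustment over the 20 features, the unadjusted p was 0.0027 and the adjusted p 0.0541, so OLFM4 did not pass the threshold of 0.05. In bulk tissue, fewer cells of a type and less RNA per cell cannot be told apart.

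The result for OLFM4 changed with single animals of both groups and with trial as a block. Without SD9, the 24 h animal with the highest OLFM4, the difference was -6.11 with a limma adjusted p of 0.0033. Without G33, the 6 h animal with the highest OLFM4, it was -3.89 with a limma adjusted p of 0.210, and without SD11 the limma adjusted p was 0.274. With trial as a block it was -3.08, with a standard error of 2.27 and a limma adjusted p of 0.693. Only the 12 h group holds both trials, so the block is estimated from G34 against SD4 and SD13. It rests on 1 CELTIC animal.

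The 12 h group holds animals of both trials, so each trial has 1 interval of its own. G34, the CELTIC animal at 12 h, had an OLFM4 level of 7.85, inside the range of the 6 h animals of the same trial, and lay below their mean by 0.90 on the log2 scale. Among STARDUST animals, the mean OLFM4 level at 24 h was below that at 12 h by 2.19, with a standard error of 1.39 and a limma adjusted p of 0.614, and SD9 at 24 h lay between SD4 and SD13 at 12 h.

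CD177 (T026), a surface protein of neutrophils that is attached by a lipid anchor, was the other marker with an unadjusted p below 0.05 across the 3 times. Its log2 normalized counts were 4.65, 4.88 and 5.13 in C4, C5 and G33 at 6 h, then 4.95, 4.74 and 4.94 in G34, SD4 and SD13 at 12 h, and 3.80, 4.42 and 2.75 in SD8, SD9 and SD11 at 24 h. All 3 animals at 24 h lay below all 6 earlier animals on this scale, though the counts behind it are low and are given below. At 6 and 12 h the 6 values stayed within a narrow range and overlapped.

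The means of CD177 were 4.89 ± 0.24, 4.88 ± 0.12 and 3.66 ± 0.84 at 6, 12 and 24 h (log2, SD, n = 3 at each time). At 24 h the mean was 1.23 below that at 6 h (difference -1.23, 95% interval -2.27 to -0.20), a 2.35-fold difference with a limma adjusted p of 0.243. Against 12 h the difference was -1.22, with a limma adjusted p of 0.459. Leaving out SD9 gave -1.61 against 6 h and -1.60 against 12 h, with limma adjusted p-values of 0.0261 and 0.0407. Leaving out SD11 gave -0.78 and -0.77, with limma adjusted p-values of 0.662 and 0.832. With the median of the 20 features as the centre of each animal, the CD177 differences were -0.42 and -0.75 and the groups overlapped.

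Within STARDUST, whose animals also enter the comparison of all 24 and 12 h animals, CD177 was lower at 24 h without overlap. The groups of 4 of 20 features did not overlap there. The 3 STARDUST animals at 24 h lay below both STARDUST animals at 12 h, by 1.18 on the log2 scale between the means, with a standard error of 0.64 and a limma adjusted p of 0.614. In CELTIC, G34 at 12 h was above the 6 h mean by 0.065.

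**Figure D1:**
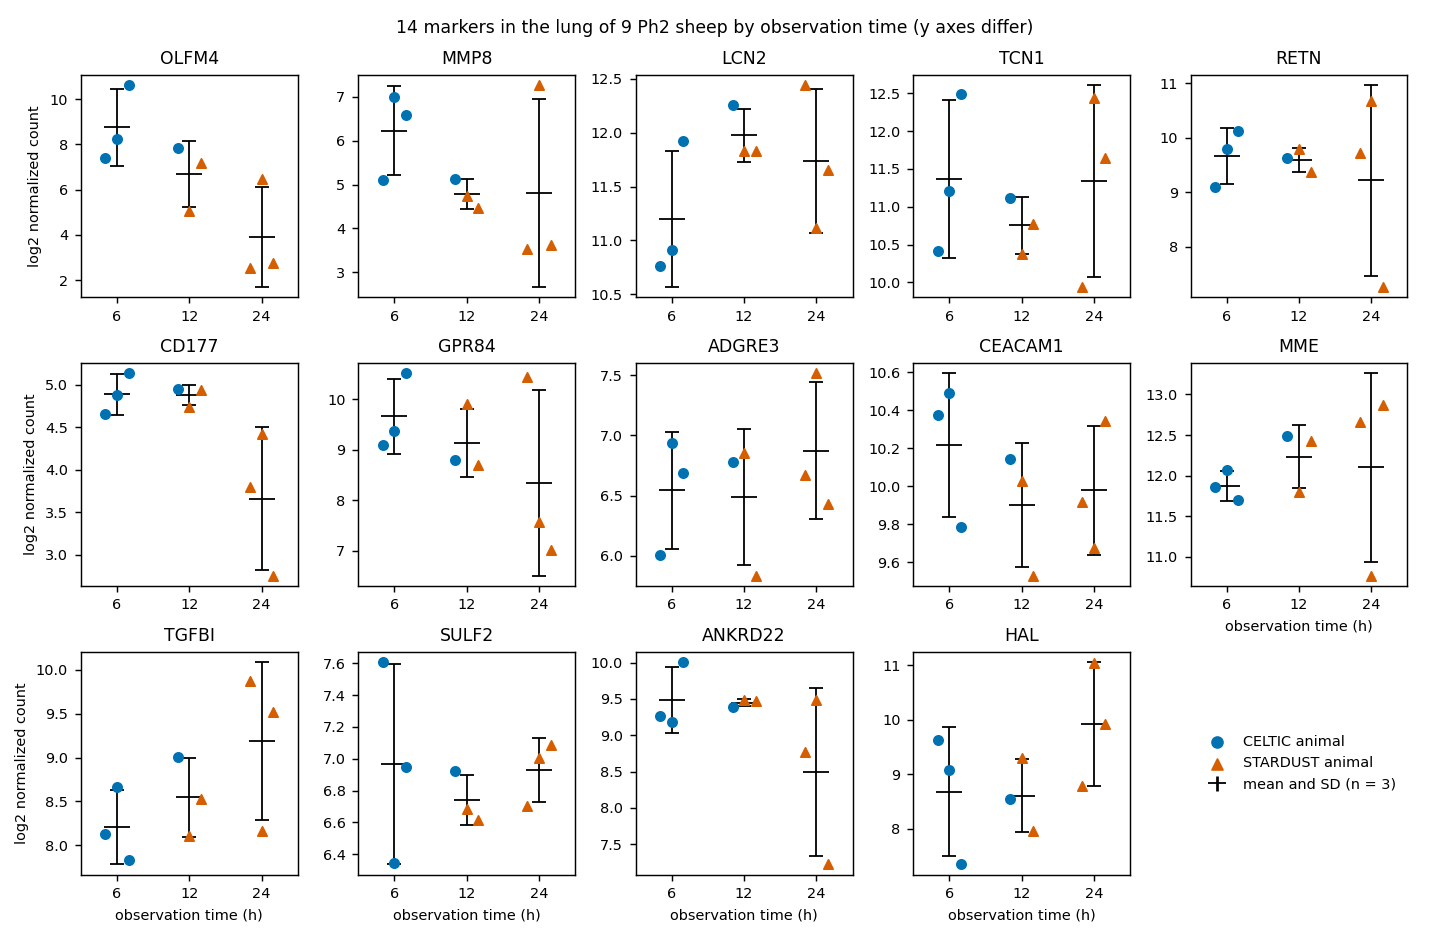
Log2 normalized counts of the 14 markers in each of the 9 Ph2 sheep by observation time in hours, with blue circles for CELTIC and orange triangles for STARDUST animals and black bars for the mean and SD of 3 animals. OLFM4 and CD177 at 24 h lie below all 6 h animals, while the other 12 markers overlap between 6 and 24 h.

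OLFM4, CD177 and MMP8 were the markers with the lowest count in any single animal, so their recovered whole numbers were examined. OLFM4 had 166, 254 and 1316 counts at 6 h and 164, 42 and 167 at 12 h, in the animal order used above. At 24 h it had 7 counts in SD8, 91 in SD9 and 6 in SD11, with Poisson 95% intervals of 2.81 to 14.4, 73.3 to 112 and 2.20 to 13.1, which cover counting error only. In SD8 and SD11, OLFM4 was thus no higher than the higher of T007 and T011, the pair at the detection limit.

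CD177 had 25, 25 and 29 counts at 6 h, 22, 34 and 36 at 12 h and 17, 22 and 6 at 24 h. SD9 at 24 h and G34 at 12 h thus had the same 22 counts, with a Poisson 95% interval of 13.8 to 33.3. The 25 counts of C4 and C5 at 6 h lie inside that interval. SD9 and G34 differ on the normalized scale through their scaling factors, 0.97 and 1.41. CD177 was at or below the level of T007 and T011 in SD11 only. MMP8 ranged from 11 counts in SD11, the only animal in which it was at or below that level, to 160 in SD9.

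With values below the higher of T007 and T011 raised to it in each animal, the OLFM4 difference between 24 and 6 h was -4.22 with a limma adjusted p of 0.0780. For CD177 it became -0.79 with a limma adjusted p of 0.311. T007 and T011 were left out of this fit, so its adjustment covers fewer features than the main one.

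**Figure D2:**
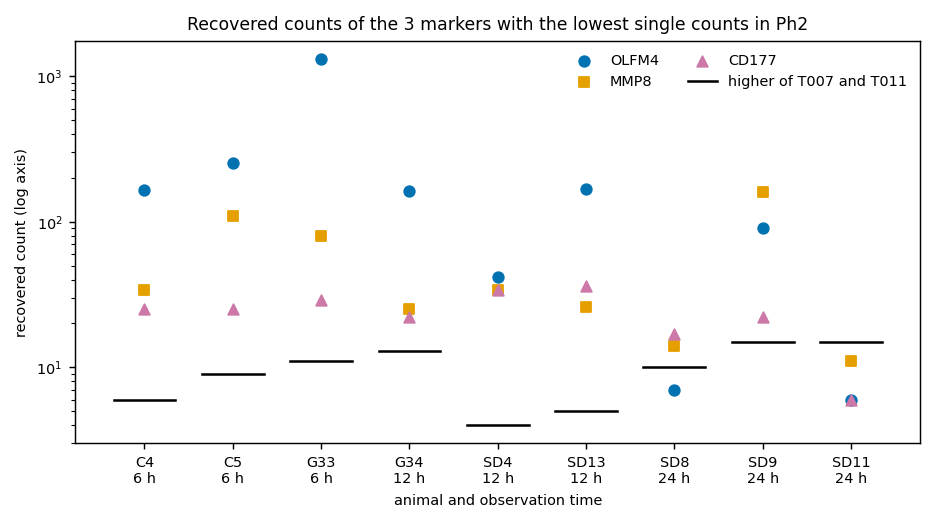
Recovered counts of OLFM4, MMP8 and CD177 in each of the 9 Ph2 sheep on a log axis, with a black line at the higher count of T007 and T011 in the same animal. OLFM4 is below the line in SD8 and SD11 at 24 h with 7 and 6 counts, and at 91 counts in SD9.

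Over all features, limma's moderated F test of the 3 times gave 0 of 20 with an adjusted p below 0.05 (0%) and 2 of 20 with an unadjusted p below 0.05 (10%). These were OLFM4, with a limma adjusted p of 0.175 (0.00876 unadjusted), and CD177, with a limma adjusted p of 0.375 (0.0375 unadjusted). The exact permutation F test over all 1680 arrangements of the 9 animals, whose smallest possible p is 0.00357, gave p = 0.0429 for OLFM4 and p = 0.0357 for CD177, both with an adjusted p of 0.429. An exact permutation Kruskal-Wallis test gave p = 0.0286 for OLFM4 and p = 0.0714 for CD177, and no feature with an adjusted p below 0.05. When time entered limma as a number, the log2 level of OLFM4 fell by 2.42 per doubling of the observation time, with a standard error of 0.58 and an adjusted p of 0.031. That slope, like the difference between 24 and 6 h, runs along the change of trial.

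Of the 5 neutrophil granule and secreted proteins (MMP8, OLFM4, LCN2, TCN1 and RETN), 0 passed the test in any of the 3 comparisons. Between 24 and 6 h, 4 of the 5 had a lower mean at 24 h and the median log2 difference was -0.45, beside 12 of 20 lower (60%) and a median of -0.14 over all features. When the median of all 20 features was set to 0 in every animal, 2 of the 5 were lower and the median was 0.36. Over all features, 5 of 20 were then lower and the median was 0.68. With T036 to T039 as the centre, 4 of the 5 were lower with a median of -0.46, beside 12 of 20 features and a median of -0.14.

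MMP8, the neutrophil collagenase, had log2 normalized counts of 5.09, 7.0 and 6.60 at 6 h in C4, C5 and G33. At 12 h the values were 5.14, 4.74 and 4.47 in G34, SD4 and SD13, and at 24 h they were 3.52, 7.28 and 3.63 in SD8, SD9 and SD11. SD8 and SD11 held the lowest MMP8 of the 9 animals and SD9 the highest, so the 24 h group spanned all other values. The mean MMP8 differed by -1.42 between 24 and 6 h (standard error 0.94, limma adjusted p 0.467). Without SD9 the difference was -2.66 with a limma adjusted p of 0.0102, while without SD8 it was -0.78 with a limma adjusted p of 0.666.

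LCN2 encodes lipocalin 2, which binds bacterial iron carriers and is made by neutrophils and airway epithelium. Its log2 normalized counts were 10.76, 10.91 and 11.92 at 6 h, 12.26, 11.84 and 11.83 at 12 h and 12.45, 11.12 and 11.65 at 24 h, in the same animal order. Its mean was higher than at 6 h by 0.78 at 12 h (standard error 0.48, limma adjusted p 0.873) and by 0.54 at 24 h (standard error 0.48, limma adjusted p 0.571). LCN2 was the granule protein with a higher mean at both later times, and its groups overlapped because G33 at 6 h had 11.92.

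TCN1, the cobalamin-binding haptocorrin of specific granules, had log2 normalized counts of 10.42, 11.21 and 12.49 at 6 h, 11.12, 10.37 and 10.77 at 12 h and 9.94, 12.43 and 11.65 at 24 h. The highest values were those of G33 and SD9, the lowest that of SD8. The means at 6 and 24 h, 11.37 ± 1.04 and 11.34 ± 1.27 (SD, n = 3), differed by -0.030 with a 95% interval from -1.61 to 1.55.

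Resistin (RETN), a cysteine-rich protein secreted by myeloid cells, had log2 normalized counts of 9.10, 9.79 and 10.12 at 6 h, 9.62, 9.79 and 9.36 at 12 h and 9.72, 10.67 and 7.26 at 24 h. SD9 held the highest and SD11 the lowest RETN of the 9 animals. The difference between 24 and 6 h was -0.45 (standard error 0.76, limma adjusted p 0.704), and it was 0.53 without SD11.

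Among the 5 leukocyte surface proteins (CD177, GPR84, ADGRE3, CEACAM1 and MME), 0 passed the test between any 2 times. Between 24 and 6 h, 3 of the 5 had a lower mean at 24 h, with a median log2 difference of -0.24. Over all features, 12 of 20 were lower (60%) and the median was -0.14. Centring on the median of the 20 features left 2 of 5 lower and a median of 0.58, beside 5 of 20 features lower and a median of 0.68. With T036 to T039 as the centre, 3 of 5 were lower with a median of -0.24, beside 12 of 20 features and a median of -0.14.

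GPR84, a receptor for medium-chain fatty acids that LPS induces in macrophages and neutrophils, had log2 normalized counts of 9.11, 9.38 and 10.52 at 6 h in C4, C5 and G33. The 12 h values were 8.79, 9.92 and 8.70 in G34, SD4 and SD13, and the 24 h values 10.45, 7.57 and 7.02 in SD8, SD9 and SD11. SD8 was close to G33, the highest animal, while SD9 and SD11 were the 2 lowest of the 9. GPR84 had the largest difference of this group, -1.32 between 24 and 6 h (standard error 0.84, 95% interval -3.20 to 0.57, limma adjusted p 0.467). Without SD8 it was -2.37 and without SD11 it was -0.66.

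ADGRE3, an adhesion G protein-coupled receptor of myeloid cells, had log2 normalized counts of 6.01, 6.94 and 6.69 at 6 h, 6.78, 6.85 and 5.84 at 12 h and 6.67, 7.51 and 6.43 at 24 h. SD9 again held the highest value, and the 3 times overlapped. CEACAM1, an adhesion molecule of leukocytes and epithelium, had 10.37, 10.49 and 9.78 at 6 h, 10.14, 10.03 and 9.53 at 12 h and 9.92, 9.67 and 10.34 at 24 h. CEACAM1 had nearly the same spread at the 3 times, with SDs of 0.38, 0.33 and 0.34, and its difference between 24 and 6 h was -0.24 (95% interval -1.12 to 0.65).

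MME, the surface endopeptidase neprilysin or CD10, is carried by mature neutrophils and by lung stroma and epithelium. Its log2 normalized counts were 11.86, 12.07 and 11.70 at 6 h, 12.49, 11.79 and 12.43 at 12 h and 12.66, 10.77 and 12.87 at 24 h. The order of RETN at 24 h was turned round for MME, with SD9 the lowest of the 9 animals and SD11 the highest. The difference between 24 and 6 h was 0.23 (standard error 0.56), and it was 0.89 without SD9 and -0.16 without SD11.

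TGFBI and SULF2 belong to the extracellular matrix. TGFBI, a secreted matrix protein induced by transforming growth factor beta, had log2 normalized counts of 8.13, 8.67 and 7.83 at 6 h, 9.01, 8.11 and 8.52 at 12 h and 9.87, 8.17 and 9.52 at 24 h. SD8 and SD11 lay above all other animals and SD9 among the 6 h values. TGFBI was higher at 24 h than at 6 h by 0.98 (standard error 0.52, 95% interval -0.18 to 2.14, limma adjusted p 0.467). Without SD9 the difference was 1.49 with a limma adjusted p of 0.0371, while without SD8 it was 0.63 with a limma adjusted p of 0.666.

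SULF2, which trims sulfate groups from heparan sulfate outside the cell, had log2 normalized counts of 7.61, 6.34 and 6.95 at 6 h, 6.92, 6.68 and 6.62 at 12 h and 6.70, 7.0 and 7.08 at 24 h. Its highest and lowest values both belonged to 6 h animals. The difference between 24 and 6 h was -0.036, with a 95% interval from -0.96 to 0.89.

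The remaining markers were HAL and ANKRD22. HAL encodes histidine ammonia-lyase, which opens the breakdown of histidine, and had log2 normalized counts of 9.63, 9.07 and 7.34 at 6 h, 8.55, 9.30 and 7.97 at 12 h and 8.78, 11.05 and 9.93 at 24 h. SD9 and SD11 were the 2 highest animals and G33 the lowest. The mean at 24 h was higher by 1.24 than at 6 h (standard error 0.74, limma adjusted p 0.467) and by 1.31 than at 12 h (limma adjusted p 0.483).

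ANKRD22, an ankyrin repeat protein, had log2 normalized counts of 9.26, 9.18 and 10.01 at 6 h, 9.39, 9.49 and 9.47 at 12 h and 8.76, 9.48 and 7.22 at 24 h. The 12 h animals were the most alike of any marker and time, with an SD of 0.050. SD11 stood below all others, and the difference between 24 and 6 h was -0.99 with SD11 (standard error 0.56, limma adjusted p 0.467) and -0.36 without it.

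The first comparison, 12 h against 6 h, covers the early hours after injury. No marker separated these groups on the deposited scale. With T036 to T039 as the centre, MMP8 was lower and LCN2, MME and TGFBI were higher at 12 h without overlap. T036, itself part of that centre, was also higher without overlap, and all other features overlapped. With that centre, the lowest limma adjusted p of the 20 features was 0.923. On the deposited scale, OLFM4 had the largest difference (-2.07, standard error 1.21), followed by MMP8 (-1.45, standard error 0.94). LCN2 had the largest one upward (0.78). By limma, 0 of 20 features had an adjusted p below 0.05 (0%), 0 of 20 an unadjusted p below 0.05 (0%), and the groups of 0 of 20 did not overlap (0%).

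Between 12 and 6 h, 11 of the 14 markers had a lower mean at 12 h, with a median log2 difference of -0.08, beside 16 of 20 features (80%) and a median of -0.17. This count turned with the scaling, to 4 of 14 lower with the median of the 20 features as the centre of an animal and to 6 of 14 with T036 to T039 as the centre. G34, the CELTIC animal of the 12 h group, lay inside the range of the 3 CELTIC animals at 6 h for 10 of the 14 markers. The same held for 13 of the 20 features. At 12 h itself, the mean of the 2 STARDUST animals was below G34 for 11 of 14 markers, by a median of 0.37 on the log2 scale (-0.37), with differences from -1.75 for OLFM4 to 0.52 for GPR84. Over all features, that mean was below G34 for 16 of 20, with a median difference of -0.39.

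The second comparison, 24 h against 12 h, holds 5 STARDUST animals and G34. CD177 was the marker whose groups did not overlap, and OLFM4 had the largest difference (-2.77, limma adjusted p 0.459). HAL was higher by 1.31 and ANKRD22 lower by 0.96 (-0.96), each with a limma adjusted p of 0.483. By limma, 0 of 20 features had an adjusted p below 0.05 (0%) and 2 of 20 an unadjusted one (10%), OLFM4 and CD177.

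Between 24 and 12 h, 7 of 14 markers had a lower mean at 24 h, beside 9 of 20 features (45%). Among the 20 features, 1 was lower at 24 h without overlap (5%), CD177, and 1 was higher (5%), the unnamed T038. Its log2 normalized counts were 6.97, 6.16 and 6.97 at 12 h and 7.16, 7.76 and 7.47 at 24 h. Within STARDUST alone, CD177 and SULF2 were the 2 of 14 markers without overlap, SULF2 with the higher values at 24 h, beside 4 of 20 features, T011 and T038 being the others.

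The third comparison, 24 h against 6 h, spans the longest interval and also the change from CELTIC to STARDUST. OLFM4 and CD177 were lower at 24 h without overlap, as was T039 among the unnamed features, which makes 3 of 20 lower (15%) and 0 of 20 higher (0%). By limma, 0 of 20 features had an adjusted p below 0.05 (0%) and 2 of 20 an unadjusted one (10%). With either centring 1 feature passed, OLFM4, with differences of -4.02 (adjusted p 0.0392) with the median of the 20 features as the centre and of -4.84 (adjusted p 0.0219) with T036 to T039. The median of the 20 features was itself lower at 24 h than at 6 h, by 0.81 on the log2 scale (-0.81), and the mean of T036 to T039 differed by 0.0041.

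**Figure D3:**
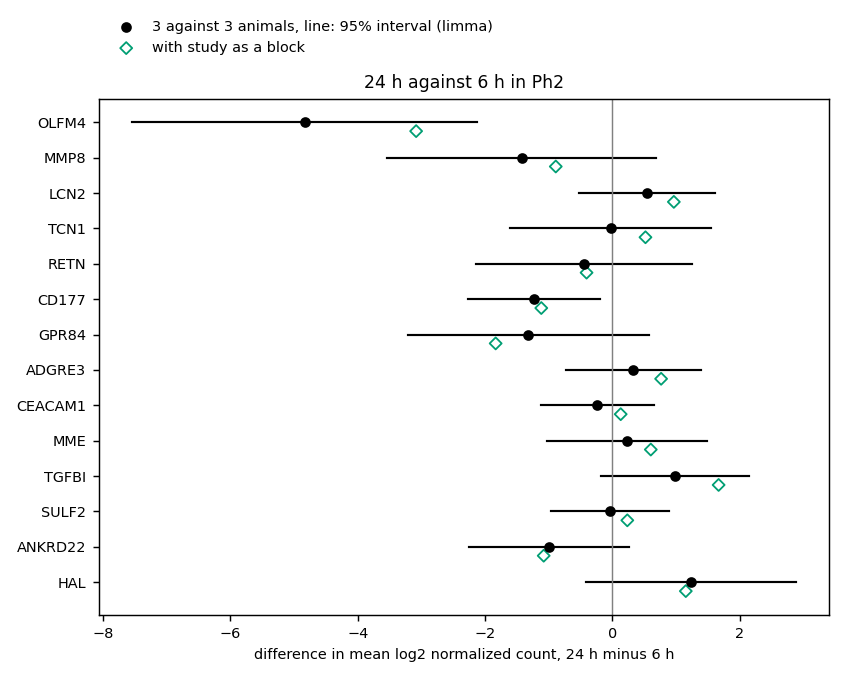
Difference in mean log2 normalized count between 24 and 6 h for the 14 markers, with the limma 95% interval as a line (3 against 3 animals), and with trial (CELTIC or STARDUST) as a block as open diamonds. The intervals of OLFM4 (-7.54 to -2.13) and CD177 (-2.27 to -0.20) are below 0, and with trial as a block OLFM4 is at -3.08 and CD177 at -1.12. The diamonds carry no interval, and their block is estimated from the 12 h animals only, of which 1 (G34) is of CELTIC.

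The 9 markers that the study listed as higher in human P2 had lower means at 24 h than at 6 h in 8 cases, with a median log2 difference of -0.99, beside 12 of 20 features and a median of -0.14. LCN2 was the exception. Of the 5 markers listed as higher in human P1, 4 had higher means at 24 h, with a median of 0.33, and SULF2 was the exception. By limma, 0 of these 14 differences had an adjusted p below 0.05.

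With trial as a block, 6 of the 9 P2 markers were lower (median -0.89) and 5 of the 5 P1 markers were higher (median 0.76), beside 7 of 20 features lower and a median of 0.45. That block rests on the 12 h animals alone, of which 1 is of CELTIC. Centred on the median of the 20 features, the counts were 5 of 9 lower (median -0.18) and 5 of 5 higher (median 1.14), beside 5 of 20 features lower, 15 higher and a median of 0.68. For 12 h against 6 h, 8 of the 9 P2 markers were lower (median -0.31), beside 16 of 20 features (80%), and with that centring 4 of 9 were lower, beside 5 of 20.

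The 3 animals of the 24 h group differed among themselves more than those of the other times. The SD of 3 animals was widest at 24 h for 11 of the 14 markers, at 6 h for 3 and at 12 h for 0, and it was narrowest at 12 h for 11. Over the markers, the median SD on the log2 scale was 0.57 for the 6 h, 0.35 for the 12 h and 1.15 for the 24 h animals. RETN, MMP8, GPR84 and ANKRD22 had SDs of 1.76, 2.14, 1.84 and 1.16 at 24 h, against 0.22, 0.34, 0.68 and 0.050 at 12 h. Over all 20 features, 13 had the widest SD at 24 h. These SDs of 3 values are given as a description.

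**Figure D4:**
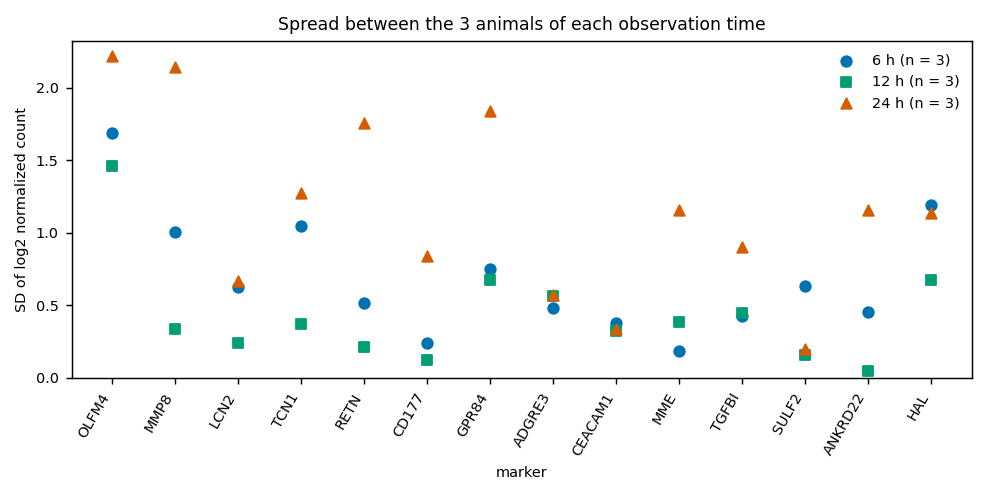
Standard deviation of the log2 normalized count between the 3 animals of each observation time, for the 14 markers. Most orange triangles (24 h) are the highest of their column, 11 of 14, and most green squares (12 h) the lowest, with medians of 1.15 and 0.35.

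Pairs of animals were set against each other by the median absolute log2 difference over the 14 markers. It was 0.55 to 0.88 for the 3 pairs at 6 h and 0.39 to 0.42 for the pairs at 12 h, of which 2 cross the trials. At 24 h it was 0.61 for SD8 and SD11, 1.24 for SD9 and SD11 and 1.52 for SD8 and SD9. The 27 pairs of animals of different times ranged from 0.35 to 2.03 with a median of 0.80. Both pairs of SD9 with its own group lay above that median, and SD8 and SD11 below it.

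SD9 had the highest value of the 24 h animals for 8 markers, MMP8, OLFM4, RETN, TCN1, ADGRE3, HAL, ANKRD22 and CD177, and the lowest for CEACAM1, LCN2, MME and TGFBI. In 5 of these cases it was also at the end of all 9 animals, as the highest for MMP8, RETN, ADGRE3 and HAL and the lowest for MME. SD11 was the lowest of all 9 for RETN, GPR84, ANKRD22 and CD177. SD8 was the lowest of all 9 for MMP8, OLFM4 and TCN1 and the highest for LCN2 and TGFBI.

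At 6 h, G33 had the highest value for 7 markers, OLFM4, RETN, GPR84, LCN2, TCN1, ANKRD22 and CD177, all of them from the human P2 list, and was the highest of all 9 animals for 5 of them. It was also the lowest 6 h animal for 4 markers, CEACAM1 of the same list and MME, TGFBI and HAL, and the lowest of all 9 for TGFBI and HAL. C4 had the lowest value of the 6 h animals for 8 markers. G34 and SD4 at 12 h were at the end of all 9 animals for no marker.

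**Figure D5:**
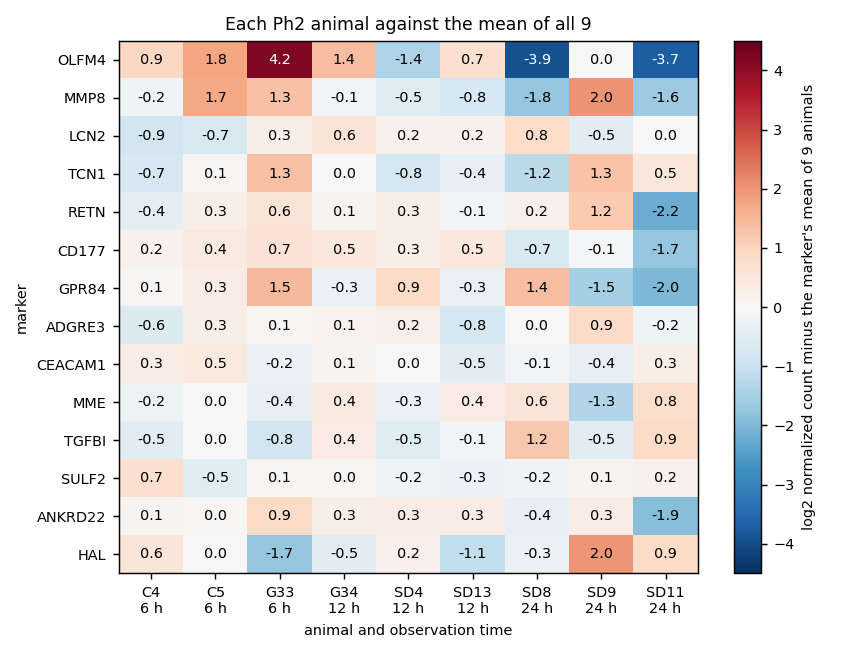
Log2 normalized count of each marker (rows) in each Ph2 animal (columns, ordered by observation time) minus the mean of the marker over the 9 animals, from blue (below) to red (above). OLFM4 is 3.9 and 3.7 below its mean in SD8 and SD11, and MMP8, HAL and RETN are above theirs in SD9, the animal between them at 24 h.

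The unnamed features T036 to T039 included 2, T038 and T039, with a pair of times that did not overlap. Their log2 normalized counts ranged over the 9 animals from 8.96 to 9.90 for T036, 8.88 to 11.32 for T037, 6.16 to 7.76 for T038 and 9.34 to 10.29 for T039. Between 24 and 6 h their mean differences were 0.43, -0.48, 0.47 and -0.40, and the highest and lowest T037 again belonged to SD9 and SD11. By limma, 0 of the 4 had an adjusted p below 0.05 in any comparison, and their lowest unadjusted p was 0.0856, for T038 between 24 and 12 h.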

How the data were processed

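Lung mRNA of 9 Ph2 sheep was grouped by the labelled observation time. The authors deposited log2 normalized counts of 20 nCounter features. According to the methods, the mean of the negative controls plus 2 SD was subtracted in nSolver, 3 housekeeping genes (TBP, POLR2A and RPL19) served for scaling through their geometric mean, and log2 was taken. A genome build is not given in the sources used here. Whole counts were recovered from the unlogged values (13871 to 25776 per animal). Whether these whole numbers had the background already subtracted was not tested. The raw counts were not analysed here.

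Features were named by their order in the probe table of the supplement. As a check, the exact p of Ph2 against Ph1 rounded to the published one for 12 of 14 markers, all but OLFM4 and LCN2. TGFBI and CD177 had the same exact p, as had HAL and ANKRD22, so the check cannot tell the names within these pairs apart. The 14 symbols were found in the RefSeq sheep gene table (ARS-UI_Ramb_v3.0).

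Times were compared with limma 3.58.1 (lmFit and eBayes, R 4.3.3) over the 20 features, with Benjamini-Hochberg adjustment and a threshold of 0.05. Prior degrees of freedom were 3.70. Exact permutation tests and Poisson intervals used scipy 1.17.1 and numpy 2.4.6 under Python 3.11.15, and figures matplotlib 3.10.9. The exact test of 3 against 3 animals cannot go below p = 0.1, so pairs of times rest on limma. Each test was tried on simulated data beforehand. Every named marker is given by its value in each animal, and difference, standard error and adjusted p are given where the unadjusted F p was below 0.05 and for the largest difference of a gene group. Members, lists and tests were chosen with earlier results of these data known. Alternatives covered trial, scaling, low values, the test, the features adjusted over and leaving out each animal.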

Additional observations from a re-analysis of the deposited data

Results flagged for a closer look

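In each of the 20 features, the highest and the lowest of the 9 animals were set against the others by the gap to the nearest animal as a share of the whole range. Animals stood apart by this measure in 2 features, and chance alone flags about 1 in 20. RETN was 7.26 in SD11 (24 h) on the log2 scale, while the other 8 animals ranged from 9.10 to 10.67, and the gap was 0.539 of the range. ANKRD22 was 7.22 in the same animal, with the others from 8.76 to 10.01 and a gap of 0.554 of the range. The count total of SD11 was within the range of the other animals.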

How the results depend on the processing

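The limits are 3 animals a time, 1 CELTIC animal at 12 h, no trial with both 6 and 24 h, and counts of 6 or 7 for OLFM4 in 2 of 3 animals at 24 h. In the supplement, RNA integrity was lower in C4 and C5 at 6 h than in most lobes of the 24 h animals, but not in G33. The upper lobe of SD4 at 12 h was below the integrity cutoff of the study. The relation of RNA integrity to the values was not tested. No paired analysis was possible because every animal was sampled once and its number belongs to that animal alone. The count of features with an adjusted p below 0.05 between 24 and 6 h, 0 by the main test, became 1 over the 14 markers alone, 1 with the median of the 20 features as the centre, 1 with T036 to T039 as the centre and 2 without adjustment. Between 24 and 12 h it became 2 without adjustment, and for the 3 times together 2 without adjustment and 1 with a slope on log2 time. Leaving out each animal gave 0 to 3 features for the 3 times, 0 to 0 for 12 against 6 h, 0 to 2 for 24 against 12 h and 0 to 4 for 24 against 6 h, each highest count without SD9. Without SD9, the OLFM4 difference between 24 and 12 h was -4.05 (limma adjusted p 0.0407). The number of features with 2 groups that did not overlap was 4, became 9 with T036 to T039 as the centre and 3 with the median of the 20 features as the centre (OLFM4, LCN2 and T036, without CD177), and ranged from 4 to 11 with 1 animal left out (11 without SD8, 10 without SD9).

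Differences that turned sign were small ones. For CD177 between 12 and 6 h (-0.011) they were 0.065 with trial as a block and within CELTIC, 0.33 and 0.10 with the median and T036 to T039 as the centre, and 0.061 between medians. Between 24 and 6 h, the block gave 0.13 for CEACAM1, 0.52 for TCN1 and 0.23 for SULF2. Median centring gave 0.58 for CEACAM1, 0.78 for TCN1, 0.77 for SULF2 and 0.36 for RETN, and medians of animals gave 0.44 for TCN1, 0.054 for SULF2 and -0.018 for ADGRE3. With 1 animal left out, the ranges that crossed 0 were -0.13 to 0.11 for CD177 between 12 and 6 h (G33, SD4), and between 24 and 6 h -1.18 to 0.53 for RETN (SD11), -0.57 to 0.67 for TCN1 (G33, SD8), -0.16 to 0.89 for MME (SD8, SD11) and -0.35 to 0.28 for SULF2 (C4, SD8). The cause was not tested. OLFM4 between 24 and 6 h ranged from -6.11 (without SD9) to -3.89 (without G33), with adjusted p-values from 0.0033 to 0.274. Of the single differences, 77 of the other settings and 147 of those with 1 animal left out kept direction and side of the threshold. Differences between medians have no p and were judged by direction alone. In the other settings 15 turned sign and 2 came to pass the threshold. With 1 animal left out, 9 turned sign and 6 came to pass it.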
